A study of Mus musculus with 3 samples.

Results

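The ependymal cell zone (E) is the region around the core of the main olfactory bulb in the deposited annotation of 3 coronal tissue sections. It was taken as every array spot that the annotation assigns to this zone, with no measured value used in the choice, and it holds 354341 of 2250425 annotated spots (15.7%). The sections come from adult C57BL/6J mice aged 12 weeks, with no treatment or engineered allele in the labels, and each is 1 sample of poly(A) RNA on a high-density spatial transcriptomics array. On such an array, barcoded positions capture RNA from the tissue above them, so a spot is a small piece of tissue and can hold parts of cells of different types. The labels do not say whether the sections came from separate animals, so the p-values below do not measure the spread between animals. The edgeR p-values measure how differences between regions vary from section to section, with 1 estimate of the spread shared by all regions. Differences between whole sections are taken out by the section term.

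The main olfactory bulb is built in layers. Axons of olfactory sensory neurons enter at the surface and contact mitral and tufted cells, the excitatory output neurons, which are inhibited by periglomerular cells near the surface and by granule cells, the GABA-releasing interneurons that fill the deep layers. New interneurons reach the bulb through its core along the rostral migratory stream from the subventricular zone of the forebrain. Ependymal cells are the ciliated cells that line the ventricles, and in the adult mouse bulb the former ventricle is largely closed, so the zone that carries their name lies along a remnant of that lining beside white matter and deep granule cells.

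The zone held 162703, 99361 and 92277 spots in sections 1, 2 and 3. These spots gave 88079, 87316 and 59695 counts, and 25565, 21375 and 17928 of the spots held any count. Those spots averaged 3.45, 4.08 and 3.33 counts, too few for statements on single spots, so the counts of a region were summed within each section. Levels are given as CPM, the counts scaled to a common total for each sum, on which 1 count in the zone is worth 11.4, 11.5 and 16.8 CPM. Section 1 differed the most: its zone levels, over 1996 genes, correlated with those of sections 2 and 3 at r = 0.51 and 0.523 on the log2 scale, and sections 2 and 3 with each other at 0.818, where genes are not independent replicates. Lars2, a mitochondrial leucyl-tRNA synthetase gene that was chosen after its values were seen, had 90.8 CPM in the zone of section 1 and 9735 and 8326 CPM in sections 2 and 3. The edgeR tests and the permutation test below therefore took the section into account and were computed again without each section. Correlations, list sums and the descriptions of patches and of edge and interior were not computed again in this way.

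On the arrays the zone lay in 2 separate patches in each section, each wrapped by the internal granule cell layer (GCL-I) and surrounding the rostral migratory system (RMS). Along its edge, 3068, 2284 and 2266 zone spots touched the internal granule cell layer and 2468, 1196 and 572 touched the rostral migratory system. No zone spot touched any of the other 6 regions, which are the olfactory nerve layer (ONL), glomerular layer (GL), external plexiform layer (EPL), mitral layer (M/T), internal plexiform layer (IPL) and external granule cell layer (GCL-E). The zone made up 18.6%, 14.8% and 13.3% of the spots of named regions and 25.6%, 13.5% and 11.9% of their counts.

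**Figure D1:**
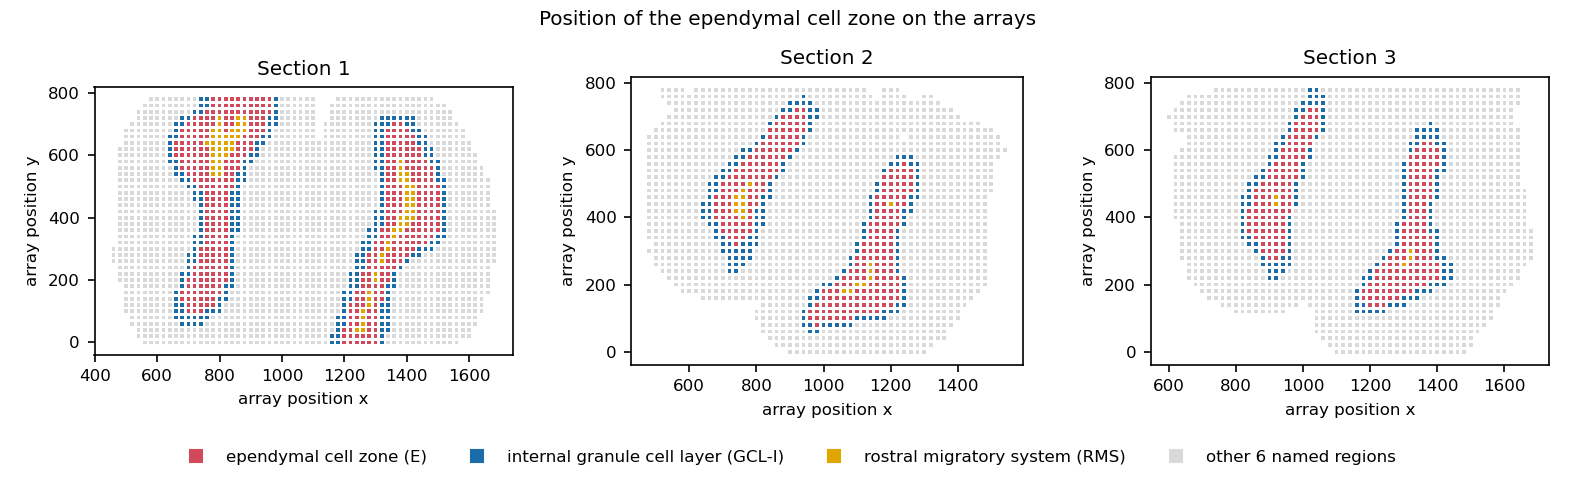
Position of the ependymal cell zone (red) on the arrays of the 3 sections, with the internal granule cell layer in blue, the rostral migratory system in yellow and the other 6 named regions in grey. Axes are array positions, and each square is coloured by the region that most of its spots belong to. In each section the zone forms 2 patches between the internal granule cell layer and the rostral migratory system.

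RNA density in the zone was within the range of the other regions. The zone gave 54.1, 87.9 and 64.7 counts per 100 spots (68.9 ± 17.3, SD, n = 3 sections), beside 57.4, 108 and 79.7 in the internal granule cell layer and 50.5, 68.9 and 50.5 in the rostral migratory system. Relative to the other 8 regions of its section, the mean log2 difference was 0.02, and a two-sided exact permutation test over the choice of 1 region in each section gave p = 0.944 (729 arrangements, smallest possible p 0.00137). This mean averages opposite signs: relative to the mean of all named regions, the zone stood at 0.39, -0.16 and -0.19 (log2) in sections 1, 2 and 3. In such sums, fewer cells of a type and less RNA per cell cannot be told apart.

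The defining genes of ependymal cells were nearly absent from the zone. Of 17 listed genes of motile cilia and ependymal cells, 14 appear in the tables and none had enough counts to be tested. Together they gave 17 counts among the 235090 of the zone, a sum of 68.1, 68.7 and 83.8 CPM in sections 1, 2 and 3 against 98.2, 117 and 46.6 CPM for the mean of the other 8 regions. The values of the zone and of the other regions overlap. The mean of the other regions is raised by the rostral migratory system, which had the highest mean, at 246, 581 and 0 CPM in its small sums. The zone ranked 4 of 9. Foxj1, the transcription factor that drives motile ciliogenesis, had 1 count, in section 2, and 7 of the 14 were at 0: Dynlrb2, Fam183b, Mia, Cfap126, Enkur, Odf3b and Calml4. A count of 0 allows up to 34.1, 34.4 and 50.3 CPM in the 3 sections (3 counts of the total, counting error only). Tppp3, a tubulin-binding protein gene, held the most of the 17 counts, with 34.1, 34.4 and 16.8 CPM beside 22.9 ± 29.5 CPM in the other regions (SD, n = 3). The choroid plexus, the secretory epithelium of the ventricles, was represented by 1 count of Aqp1, with Ttr, Kl, Clic6 and Kcnj13, the other 4 of its listed genes that appear in the tables, at 0. The name of the zone is therefore used here for a place in the annotation and not for a cell type.

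The profile of the zone was most like that of the internal granule cell layer. Across 1996 genes, its mean levels on the log2 scale correlated at r = 0.91 with that layer, then at 0.85 with the internal plexiform layer, 0.829 with the external plexiform layer, 0.815 with the glomerular layer and 0.81 with the external granule cell layer. The correlation was 0.781 with the mitral layer, 0.751 with the olfactory nerve layer and 0.52 with the rostral migratory system. These are descriptions across genes, and the regions share sections and differ in depth: the sums of the rostral migratory system were 16285, 5162 and 1456 counts.

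Against the mean of the other 8 regions, the largest differences past the threshold included higher Nrgn, Bcl11b, Cplx2 and Penk and lower Npy, Reln and Slc17a7. With edgeR's quasi-likelihood test and Benjamini-Hochberg adjustment over 1996 genes, 43 genes were higher in the zone (2.15%) and 9 lower (0.451%), together 2.61%. The median log2 fold change of all tested genes was 0.10. Among the 43, the mean level was the highest of the 9 regions in 23 and among the highest 3 in all 43, and the zone was above the other regions in 3 of 3 sections for 38. The regions with the highest mean for the remaining 20 were the rostral migratory system for 9, both granule cell layers for 5 each and the olfactory nerve layer for 1. The 43 genes were chosen as higher than the mean of the other regions, so high ranks of the zone follow in part from that choice.

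The split between higher and lower calls depended on how the sums were scaled. RLE scaling gave 22 higher and 23 lower, the library sizes alone 50 and 15, DESeq2 8 and 11, and the same edgeR test without the rostral migratory system 52 and 45. TMM factors from all genes, an alternative chosen after seeing the data, gave 310 and 4, with the median log2 fold change of all genes moved from 0.10 to 0.38. Leaving out section 1, 2 or 3 gave 40 and 2, 8 and 1, and 8 and 4. The fitted direction of the 52 genes was the same in 614 of 614 values over the 12 alternatives, with 10 more values missing where a gene fell under the count filter. These genes were chosen for their difference, and the alternatives reuse the same counts. The shared direction is therefore no independent support.

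**Figure D2:**
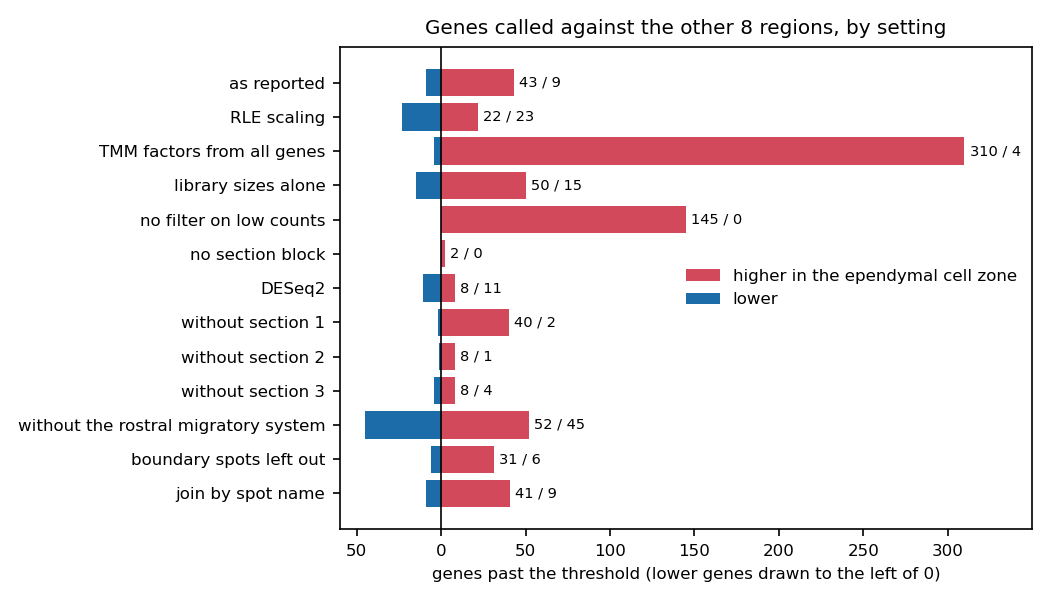
Genes past the adjusted p threshold of 0.05 for the ependymal cell zone against the other 8 regions, by setting, with higher genes in red to the right of 0 and lower genes in blue to the left. The numbers beside each bar are higher and lower counts, from 43 and 9 as reported to 310 and 4 with TMM factors from all genes and 2 and 0 without the section as a term.

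The genes that held under the most settings were Nrgn, Celf5, Cplx2, Penk and Camk2n1. They passed under 11 of the 12 alternatives, all but the fit without the section, and Nrgn and Celf5 passed under that one too. Each had its highest mean of the 9 regions in the zone, which exceeded the mean of the other regions in 3 of 3 sections. A single region could still be above the zone within a section, as described for Nrgn below.

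Nrgn encodes neurogranin, a postsynaptic protein that binds calmodulin when calcium is low. It lies on chromosome 9, 37544492-37552904 of mm10, on the minus strand. Its level in the zone was 1158, 664 and 905 CPM in sections 1, 2 and 3, against 523, 334 and 200 CPM for the mean of the other 8 regions, and in each section the zone is the higher. The means of 909 ± 247 and 352 ± 162 CPM (SD, n = 3) differ 2.58-fold, and the fitted log2 fold change was 1.54 ± 0.17 (SE, edgeR adjusted p = 5.19e-16). The next highest region was the rostral migratory system, at 694 ± 613 CPM. It had 921 and 1162 CPM in sections 1 and 2 and no count in section 3. It was thus above the zone in section 2. Its sum in section 3 held only 1456 counts, so its order relative to the zone is uncertain. The internal granule cell layer followed at 513 ± 69.2 CPM.

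Penk encodes proenkephalin, the precursor of the enkephalin opioid peptides, and lies on chromosome 4, 4133531-4138819, minus strand. It reached 976, 515 and 620 CPM in the zone against 599, 237 and 260 CPM in the other regions. The order of the sections was the same in both, with section 1 highest. The means were 704 ± 242 and 365 ± 203 CPM, a ratio of 1.93, with a log2 fold change of 1.17 ± 0.18 (edgeR adjusted p = 1.26e-07). Its order of levels ran from the zone through the rostral migratory system (645 ± 239), the internal granule cell layer (509 ± 334), the external granule cell layer (496 ± 70.9) and the internal plexiform layer (440 ± 394) to 149 ± 93.9 CPM in the olfactory nerve layer, and the first 5 of these overlap. An exon of A830012C17Rik overlaps Penk, and reads of the pair could be split or shared by the authors' counting.

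Cplx2 encodes complexin 2, which binds the SNARE complex at release sites (chromosome 13, 54371349-54383917, plus strand). It was steady between sections, at 431, 435 and 402 CPM in the zone and 172, 187 and 178 CPM in the other regions, so that the groups do not overlap. The ratio of means was 2.36, with a log2 fold change of 1.28 ± 0.24 (edgeR adjusted p = 4.36e-05).

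Celf5, an RNA-binding protein gene of neurons (chromosome 10, 81459227-81482709, minus strand), had 307, 355 and 402 CPM in the zone and 148, 152 and 152 CPM in the other regions, again without overlap (2.35-fold, log2 fold change 1.36 ± 0.26, edgeR adjusted p = 9.28e-05). An exon of Gm16105 overlaps it. Camk2n1 encodes an inhibitor of calcium/calmodulin-dependent kinase II (chromosome 4, 138454314-138460123, plus strand). Its zone levels of 1090, 1260 and 1256 CPM lie above the 564, 757 and 787 CPM of the other regions in each section, a ratio of 1.71 with a log2 fold change of 0.79 ± 0.15 (edgeR adjusted p = 5.41e-05).

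**Figure D3:**
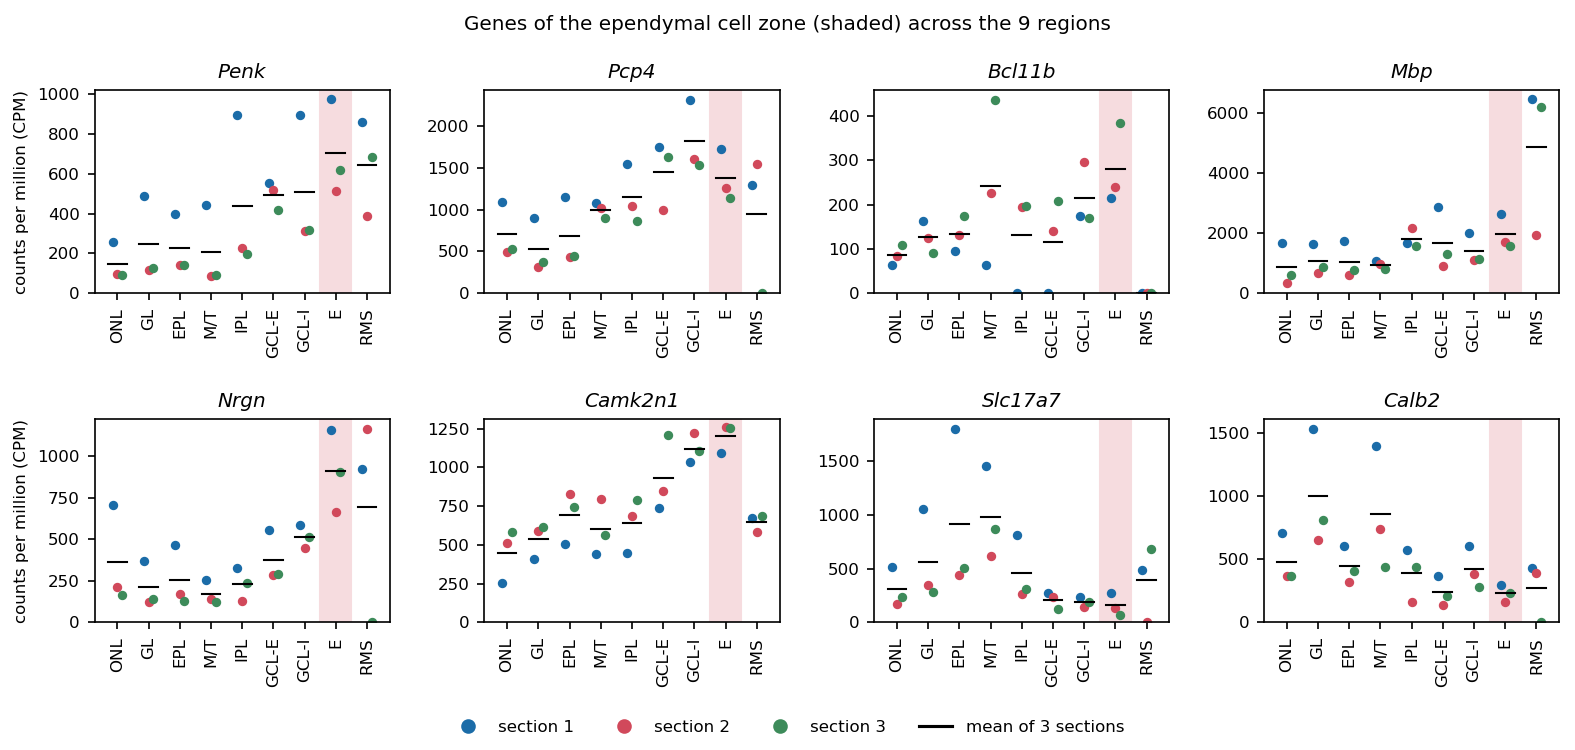
Level in CPM (counts scaled to a common total) of 8 genes in each of the 9 regions, ordered from the surface to the core, with 1 point for each section and a bar at the mean of 3 sections. The ependymal cell zone is shaded. Penk, Bcl11b, Nrgn and Camk2n1 have their highest mean in the zone, Pcp4 has it in the internal granule cell layer and Mbp in the rostral migratory system, and Slc17a7 and Calb2 are at their lowest mean in the zone.

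The other 3 markers given with the zone were higher too, and each was as high or higher elsewhere or rested on fewer counts. Pcp4, which encodes a small calmodulin-binding protein, had 1726, 1260 and 1139 CPM against 1391, 931 and 786 CPM (log2 fold change 0.52 ± 0.14, edgeR adjusted p = 0.0184), with its highest mean in the internal granule cell layer (1816 ± 434 CPM). The adjusted p for Pcp4 was 0.00641, 0.468 and 0.17 without section 1, 2 and 3, and an exon of Igsf5 overlaps the gene. Mbp, the myelin basic protein gene, had 2623, 1706 and 1558 CPM against 2388, 1082 and 1658 CPM, so it was above the other regions in 2 of 3 sections (log2 fold change 0.52 ± 0.13, edgeR adjusted p = 0.00907). The fitted change averages the logs of 8 regions, and the mean CPM that it is set beside is raised by the rostral migratory system at 4855 ± 2531 CPM. Fitted changes of all genes also use TMM factors, which the CPM values do not. In sections 1, 2 and 3 these factors were 0.981, 1.43 and 3.39 for the rostral migratory system and 0.973, 0.956 and 0.960 for the zone. Without section 1, 2 and 3 the adjusted p for Mbp was 0.000136, 0.543 and 0.0942.

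Bcl11b, a transcription factor gene of striatal and cortical projection neurons and of bulb granule cells, had 216, 241 and 385 CPM in the zone against 70.3, 150 and 174 CPM in the other regions. The zone was higher in 3 of 3 sections, a ratio of means of 2.13 (edgeR adjusted p = 0.00433, and 0.0547, 0.0376 and 0.135 without section 1, 2 and 3). Bcl11b was 1 of 7 called genes with no count in the rostral migratory system in any section, with Cx3cl1, Otub1, Tjp1, Emsy, Kmt5b and Grm5. A fitted fold change against such a region depends on the prior count, so ratios of mean levels are given for these genes. Without the rostral migratory system Bcl11b kept its call (adjusted p = 0.0279), and the other 6 had adjusted p from 0.054 to 0.121.

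Those 6 genes also rested on only 38 to 55 counts each in the zone. Cx3cl1, the neuronal chemokine fractalkine, had 329, 172 and 184 CPM against 122, 104 and 122 CPM, and Grm5, a group I metabotropic glutamate receptor, had 193, 252 and 151 against 75.1, 140 and 97.8 CPM. Both stand above the other regions in each section. Tjp1, the tight junction scaffold ZO-1, had 114, 241 and 184 CPM against 26.8, 132 and 130 CPM, and its highest mean was in the olfactory nerve layer (287 ± 193 CPM). Otub1, a deubiquitinase gene, Emsy, a BRCA2-interacting chromatin protein gene, and Kmt5b, a histone H4 methyltransferase gene, had ratios of means of 2.13, 2.11 and 2.05. An exon of Gm16066 overlaps Kmt5b. Without single sections their edgeR adjusted p ran from 0.0486 (Cx3cl1 without section 3, the only 1 of these values under the threshold) to 0.323 (Otub1 without section 3), and some fell under the count filter.

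Kcnf1, Kcnh3 and Adgrb2 complete the 14 named higher genes. Kcnf1, a modifier subunit of voltage-gated potassium channels, had 295, 298 and 335 CPM in the zone against 160, 142 and 109 CPM, with no overlap (log2 fold change 1.18 ± 0.28, edgeR adjusted p = 0.00359). Kcnh3, a voltage-gated channel of the ether-a-go-go family, had 307, 298 and 335 CPM against 169, 136 and 104 CPM (1.17 ± 0.27, adjusted p = 0.0024 with edgeR), and an exon of Mcrs1 overlaps it. Adgrb2, a brain adhesion G protein-coupled receptor, had 295, 263 and 251 CPM against 217, 83.8 and 64.1 CPM (1.15 ± 0.29, adjusted p = 0.00937 with edgeR). All 3 stayed past the threshold without section 1. Their adjusted p was 0.0552, 0.0552 and 0.219 without section 2, and 0.151, 0.108 and 0.242 without section 3.

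**Figure D4:**
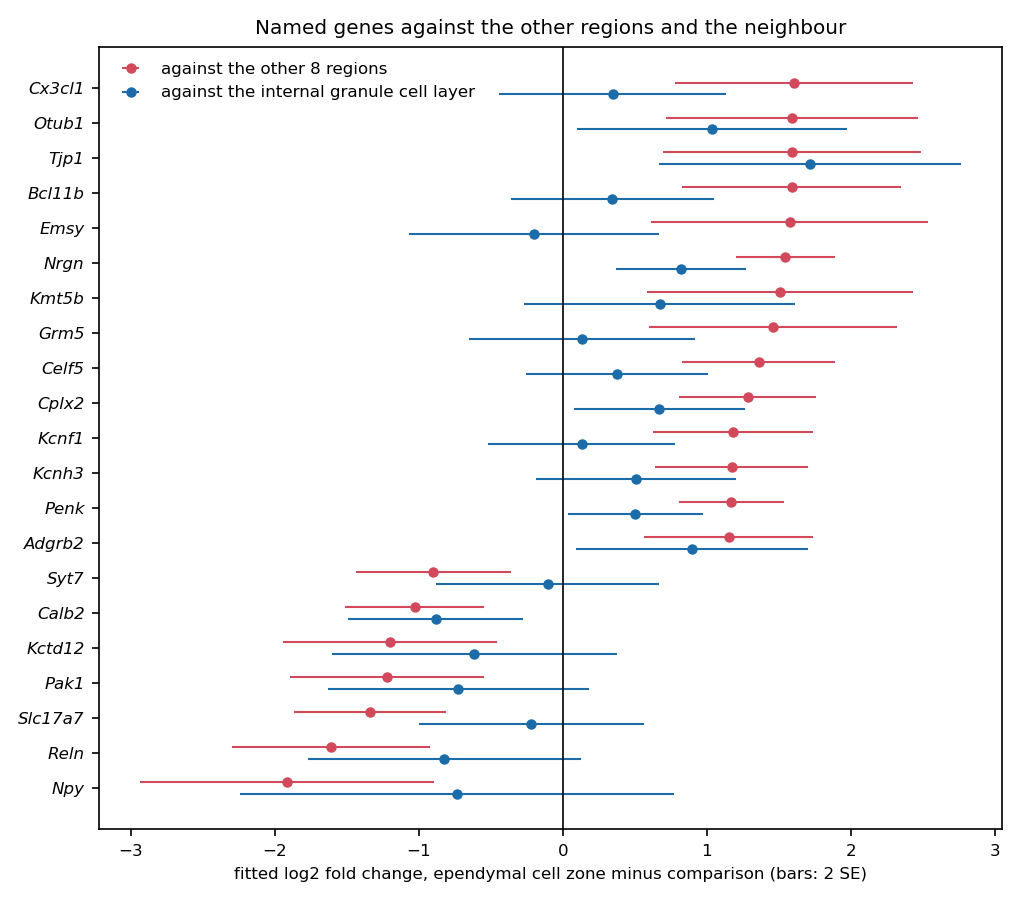
Fitted log2 fold change of 14 higher and 7 lower genes in the ependymal cell zone, against the other 8 regions (red) and against the internal granule cell layer (blue). Points are edgeR estimates and bars are 2 standard errors. The blue points lie nearer to 0 than the red points for all of these genes but Tjp1, and none of the blue differences passed the adjusted threshold.

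Gene groups chosen with earlier results of these data known are described next by their counts, without a test of the group. Granule cell genes were higher in part: 10 of 12 could be tested and 5 were higher, Penk, Pcp4, Camk2a, Pbx3 and Tshz1, with none lower, beside 2.15% of all genes tested. Camk2a, the alpha subunit of calcium/calmodulin-dependent kinase II, had 386, 710 and 804 CPM against 210, 487 and 635 CPM (edgeR adjusted p = 0.00433, with 0.0143, 0.0553 and 0.107 without section 1, 2 and 3). The median log2 fold change of the 10 was 0.44, beside 0.10 for all 1996 genes. The summed level of the list was 8556 ± 418 CPM in the zone and 7263 ± 270 CPM in the other regions, and it was higher still in the internal granule cell layer at 10484 CPM. Gad1, the GABA-synthesizing enzyme of these cells, is in this list and was not higher in the zone, as described below.

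Transcription factors of bulb interneurons gave 4 higher of 15 tested, from a list of 20 and beside 2.15% of all genes, with a median log2 fold change of 0.21. They were Bcl11b, Pbx3, Tshz1 and Sp9, of which Pbx3 and Tshz1 are also in the granule cell list. Sp9, a zinc finger factor of immature interneurons, had 227, 252 and 235 CPM in the zone against 149, 172 and 94.9 CPM, and 443 ± 399 CPM in the rostral migratory system (edgeR adjusted p = 0.0473 for the zone, 0.0709 and 0.257 without section 1 and 3, and not tested without section 2). An exon of Cir1 overlaps Sp9. Tshz1, a zinc finger factor needed for granule cell migration, had 590, 676 and 838 CPM against 384, 508 and 632 CPM (edgeR adjusted p = 0.0461, with 0.0709, 0.235 and 0.318 without section 1, 2 and 3). Pbx3, a homeodomain factor, had 386, 412 and 385 CPM against 232, 286 and 201 CPM (edgeR adjusted p = 0.0461, with 0.134, 0.2 and 0.258). In all 3 the zone exceeded the other regions in each section.

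Penk and Bcl11b are also known from striatal projection neurons, which dopamine receptors mark. Of 17 genes of striatal-type cAMP signalling in the tables, 6 were tested and these 2 were higher, beside 2.15% of all genes. The summed level of the list, Penk and Bcl11b included, was 2611, 1810 and 2111 CPM in the zone against 2204, 1539 and 1391 CPM in the other regions. Its mean of 2177 CPM was the highest of the 9 regions, with the external granule cell layer close at 2052 CPM. Drd1, a dopamine receptor gene, was the 1 member in the tables with no count in the zone in any of the 3 sections. Arpp21, a cAMP-regulated phosphoprotein gene, had 284, 470 and 486 CPM against 265, 419 and 370 CPM (edgeR adjusted p = 0.661), and Prkar1b, a regulatory subunit of protein kinase A, 420, 126 and 151 CPM against 482, 198 and 104 CPM (edgeR adjusted p = 0.933).

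Calcium and calmodulin signalling was the list with the most higher members. Of 18 genes 15 were tested and 7 were higher with none lower, against 2.15% of all genes: Nrgn, Camk2n1, Pcp4, Camk2a, Camk2b, Ppp3ca and Ppp3r1. The summed level was 12682, 13938 and 14775 CPM in the zone and 10076, 10927 and 10873 CPM in the other regions, a ratio of 1.30 and the highest mean of the 9 regions, with the internal granule cell layer close at 13506 CPM. Ppp3ca and Ppp3r1 encode the catalytic and regulatory subunits of calcineurin, the calmodulin-dependent phosphatase. Ppp3ca had 466, 1443 and 1441 CPM against 446, 1083 and 742 CPM, with section 1 low in both and close to the other regions (edgeR adjusted p = 0.0193, with 0.000421, 0.462 and 0.432 without section 1, 2 and 3). Ppp3r1 had 545, 550 and 570 CPM against 392, 343 and 408 CPM (edgeR adjusted p = 0.0474, with 0.0657, 0.356 and 0.274), and Camk2b had 704, 870 and 754 against 533, 567 and 528 CPM (edgeR adjusted p = 0.0203, with 0.0143, 0.463 and 0.16). Neither pair of groups overlaps. An exon of Wdr92 overlaps Ppp3r1. The median log2 fold change of the 15 tested genes was 0.35 against the other 8 regions, and 0.13 against the internal granule cell layer.

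Genes of the postsynaptic density gave 4 higher of 18 tested from 24, beside 2.15% of all genes, and none lower: Camk2b, also in the calmodulin list, Icam5, Gria3 and Baiap2. Icam5, the dendritic adhesion molecule telencephalin, had 681, 344 and 201 CPM against 358, 212 and 232 CPM and was thus below the other regions in section 3 (edgeR adjusted p = 0.0138, with 0.211, 0.223 and 0.016 without section 1, 2 and 3). Gria3, an AMPA receptor subunit, had 545, 389 and 318 CPM against 342, 228 and 280 CPM (edgeR adjusted p = 0.0461, with 0.152, 0.369 and 0.167), and Baiap2, a postsynaptic scaffold gene, 590, 286 and 352 CPM against 355, 251 and 195 CPM (edgeR adjusted p = 0.0474, with 0.313, 0.169 and 0.197). Exons of Gm26592 and Gm47079 overlap Icam5, and 1 of Gm22413 overlaps Gria3.

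Of 14 synaptic vesicle genes 13 were tested, and Cplx2 alone was higher, beside 2.15% of all genes. Snap25, a SNARE protein gene and the most abundant of them, had 4110, 3379 and 3015 CPM against 3783, 2576 and 2873 CPM (edgeR adjusted p = 0.198), and Vamp2 had 2872, 1099 and 1256 against 2423, 1034 and 1077 CPM (edgeR adjusted p = 0.393). None of 5 tested GABA-A receptor subunit genes of 12 passed, and their median log2 fold change was -0.33. Gabra5, an alpha subunit, had 261, 218 and 268 CPM against 165, 166 and 217 CPM (edgeR adjusted p = 0.098). None of 3 tested immediate early genes of 15 passed, with Egr1, an activity-induced transcription factor, at 908, 538 and 452 CPM against 993, 340 and 297 CPM (edgeR adjusted p = 0.228).

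Among genes of migrating and dividing precursors, Sp9 was the only call, of 9 tested from 16 neuroblast genes, beside 2.15% of all genes. Dcx, the microtubule-binding protein of migrating neuroblasts, had 102, 321 and 352 CPM in the zone against 124, 269 and 338 CPM in the other regions (edgeR adjusted p = 0.714), and Tubb3, a neuronal tubulin, 500, 195 and 302 CPM against 345, 152 and 285 CPM (edgeR adjusted p = 0.158). The summed level of the list was 2461 ± 239 CPM, against 2086 ± 171 CPM in the other regions and 3349 CPM in the rostral migratory system. Of 10 proliferation and progenitor genes 9 appear in the tables, none could be tested, and they gave 21 counts in the zone. Mki67, Top2a, Mcm2 and Nes were among those at 0.

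Among glia, myelin genes were the group with calls. Of 14 myelinating oligodendrocyte genes 7 were tested and 2 were higher, Mbp and Mobp, beside 2.15% of all genes. Mobp, another myelin protein gene, had 783, 515 and 704 CPM in the zone against 614, 409 and 322 CPM, above the other regions in each section (log2 fold change 0.65 ± 0.18, edgeR adjusted p = 0.0184, with 0.0135, 0.149 and 0.258 without section 1, 2 and 3). An exon of Gm38642 overlaps it. Cnp, a myelin-associated enzyme gene, had 522, 68.7 and 134 CPM against 293, 123 and 77.9 CPM and did not pass (edgeR adjusted p = 0.313). The summed level of the 14 genes was 6369, 4066 and 3870 CPM in the zone, 5165, 3283 and 4004 CPM in the other regions, and 9431 CPM on average in the rostral migratory system. How far white matter spots near that border contribute was not tested, and 17.8%, 18.5% and 16.0% of zone spots lay within 5 array positions of another region. With those spots left out, 31 genes were higher and 6 lower, of which 29 and 6 were also called with them, and Mbp and Mobp were among them (edgeR adjusted p = 0.0418 and 0.00808).

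None of 15 tested astrocyte genes of 17 passed, and their summed level was 9311 ± 1711 CPM in the zone and 11257 ± 2412 CPM in the other regions. Slc1a2, the main astrocyte glutamate transporter, had 477, 2268 and 1709 CPM against 496, 2627 and 2342 CPM (edgeR adjusted p = 0.825). None of the 7 oligodendrocyte precursor genes or 11 microglia genes could be tested, at 53 and 109 counts in the zone. The microglia sum was 738, 252 and 369 CPM against 603, 302 and 236 CPM, which overlap. Of 12 endothelial and mural genes 3 were tested, of 7 meningeal fibroblast genes 1 and of 5 blood genes 4, and none passed. The blood sum was 568, 1122 and 1441 CPM in the zone against 1218, 1321 and 1342 CPM, so section 1 had the least.

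**Figure D5:**
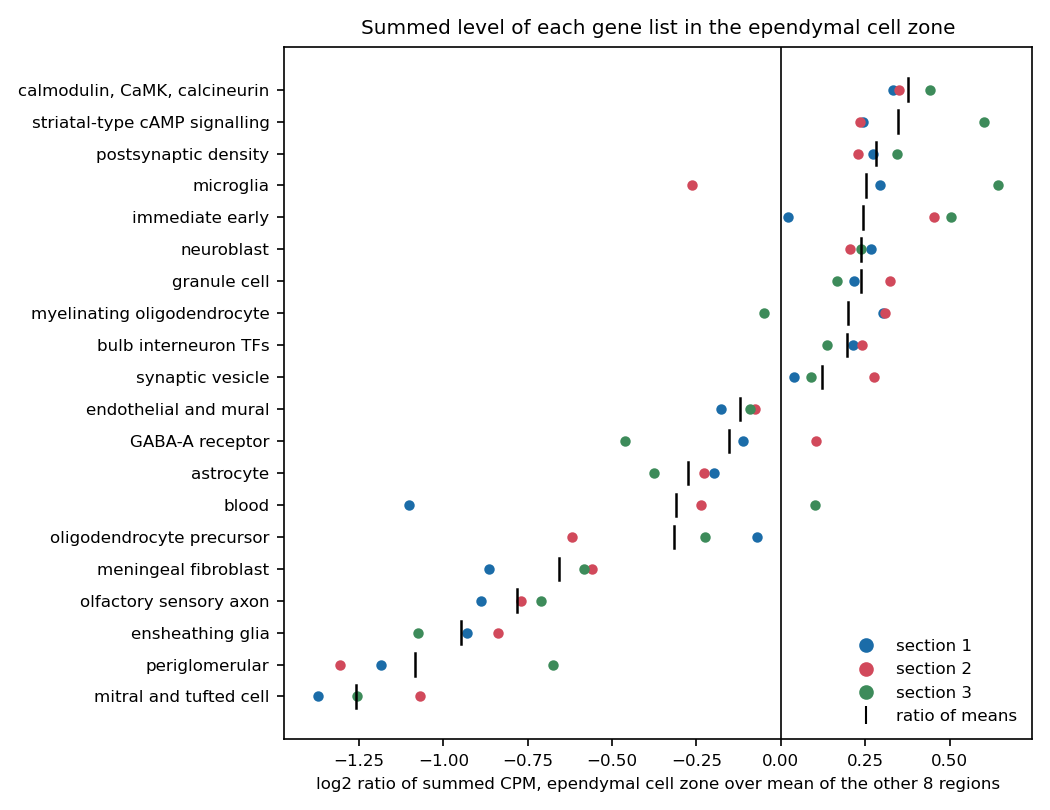
Log2 ratio of the summed CPM of each gene list in the ependymal cell zone over the mean of the other 8 regions, with 1 point for each section and a bar at the ratio of the means. Lists with very few counts are left out. The calmodulin list lies highest, at a ratio of 1.30, and the list for mitral and tufted cells lowest, at 0.418.

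Genes of outer layers of the bulb were among the lower genes. Of 7 tested mitral and tufted cell genes from 10, 2 were lower, Slc17a7 and Reln, beside 0.451% of all genes, with none higher, and the summed level of the list was 942 ± 277 CPM, the lowest of the 9 regions, against 2256 ± 871 CPM. Slc17a7, the vesicular glutamate transporter VGLUT1 (chromosome 7, 45163949-45176142, plus strand), had 272, 137 and 67 CPM in the zone against 831, 279 and 403 CPM in the other regions (log2 fold change -1.34 ± 0.26, edgeR adjusted p = 0.000126). It was highest in the mitral layer, at 986 ± 429 CPM. Reln, the secreted glycoprotein reelin (chromosome 5, 21884454-22344702, minus strand), had 114, 34.4 and 101 CPM against 326, 255 and 214 CPM without overlap (-1.61 ± 0.34, edgeR adjusted p = 0.000736). An exon of Gm10475 overlaps Reln. Without section 1, 2 and 3 the adjusted p was 0.152, 0.00946 and 0.0144 for Slc17a7, and 0.998, 0.21 and 0.00178 for Reln.

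Calb2, the calretinin gene of periglomerular and superficial granule cells (chromosome 8, 110137502-110168210, minus strand), was the 1 lower gene of 2 tested from 6 periglomerular genes, beside 0.451% of all genes. It had 295, 160 and 235 CPM in the zone, the lowest mean of the 9 regions, and 776, 393 and 367 CPM in the others, without overlap (-1.03 ± 0.24, edgeR adjusted p = 0.00346, with 0.187, 0.13 and 0.0123 without section 1, 2 and 3). Npy, neuropeptide Y, was the 1 lower gene of 3 tested from 5 ensheathing glia genes, beside the same 0.451% of all genes. It had 56.8, 11.5 and 33.5 CPM against 271, 97.9 and 74.5 CPM (-1.91 ± 0.51, edgeR adjusted p = 0.0147, with 0.998, 0.195 and 0.0502). Npy rests on few counts in the zone. None of 3 tested olfactory sensory axon genes of 7 passed, and S100a5, a calcium-binding protein gene of sensory neurons, had 79.5, 80.2 and 101 CPM against 169, 141 and 197 CPM (edgeR adjusted p = 0.94).

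Other lower genes were Pak1, a p21-activated kinase, Kctd12, an auxiliary subunit of GABA-B receptors, and Syt7, a synaptotagmin calcium sensor. Syt7 had 159, 160 and 184 CPM in the zone and 316, 329 and 378 CPM in the other regions, with the narrowest spread of the 3 (-0.90 ± 0.27, edgeR adjusted p = 0.0426). The log2 fold changes of Pak1 and Kctd12 were -1.22 and -1.20. These 3 genes were lower than the other regions in 3 of 3 sections, and without single sections their edgeR adjusted p ran from 0.0775 to 0.463. Exons of other transcripts overlap Syt7 and Kctd12.

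Against single deep regions no gene passed the adjusted threshold. With edgeR, 0 of 1996 genes (0%) passed against the internal granule cell layer, the external granule cell layer or the rostral migratory system, with 128, 127 and 262 at an unadjusted p under 0.05. The smallest adjusted p was 0.127, 0.171 and 0.124. DESeq2 called 1, 0 and 0. The median log2 fold change of all genes was -0.00, 0.05 and 0.47, the last with the small sums of the rostral migratory system. The 43 genes higher against the other 8 regions had medians of 0.30, 0.69 and 1.02 in these comparisons, which share the zone sums with the first comparison. In simulated sums of the same sizes, the 3 comparisons found 44, 26 and 18 of 100 genes changed 2-fold. With such recovery, 0 calls does not show equal levels. Of the calls in these simulated sums, 4.38%, 3.03% and 19.5% were false in the 3 comparisons. Against the other 8 regions 7.06% were false, so there and for the rostral migratory system the share exceeded the threshold of 0.05. Apart from the changed genes, the simulation gave all regions of a section the same profile, unlike the data.

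The genes with the smallest adjusted p against the internal granule cell layer were Gad1 and Cst3, which were chosen after their values were seen. Gad1, glutamate decarboxylase, had 2316, 1684 and 1692 CPM in the zone and 3892, 2738 and 2599 CPM in the internal granule cell layer, lower in the zone in 3 of 3 sections without overlap (log2 fold change -0.68 ± 0.17, edgeR adjusted p = 0.127). It was the 1 gene that DESeq2 called. Cst3, the cysteine protease inhibitor cystatin C, abundant in glia, had 3622, 2634 and 2446 CPM in the zone and 2530, 1468 and 1491 CPM in the layer (0.70 ± 0.18, edgeR adjusted p = 0.127), with 6148 ± 1483 CPM in the rostral migratory system. Gad1 or Cst3 passed under some settings and not under others, at counts of 0 to 2 genes. Nrgn was above the internal granule cell layer in each section, at 1158, 664 and 905 against 584, 445 and 511 CPM, with an interval of 2 SE from 0.37 to 1.27 on the log2 scale (edgeR adjusted p = 0.189). For Penk the same interval was 0.03 to 0.97 (adjusted p = 0.648 with edgeR), for Mbp 0.15 to 0.88 (adjusted p = 0.483 with edgeR) and for Pcp4 -0.73 to -0.03 (adjusted p = 0.648 with edgeR).

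The order of most of these genes held within the separate patches, which divide the same counts and so add no independent support. In each of the 6 patches the zone was compared with the internal granule cell layer around it, as a description, since patches of a section share its library. Nrgn, Mbp and Cst3 were above the layer in 6 of 6 patches, and Gad1 and Pcp4 were below it in 6 of 6. Nrgn ranged from 618 to 1244 CPM over the zone patches, and Gad1 from 1588 to 2559 CPM. Penk was above the layer in 5 of 6, with section 1 split between its patches. Of the 43 higher genes, 9 were above the layer in all 6 patches, 10 in 5 and 7 in 4, and the other 17 in 3 or fewer.

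Within the zone, spots were also divided in each section at the median distance from the nearest spot of another region, on either border, which gave 28303 to 45649 counts in each division. Of 115 genes compared, 15 were higher in the interior in 3 of 3 sections, 12 were higher near the edge in 3 of 3 and 88 had no single order, so no difference between edge and interior is read from these counts.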

How the data were processed

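For each of 3 sections the authors deposited whole-number transcript counts per spot and gene, and a table of the array position, pixel position and named region of each spot. Reads were placed on mm10, as the submitters' processing notes list it. The aligner, the counter, whether molecular identifiers were counted and how the regions were drawn are not given in the sources used here. Gene positions come from GENCODE M21 of that build, in which 99.8% of 19621 symbols were found.

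Each count was given the region of its pixel position, with 100% of entries matched in each section. Matching by spot name gave the same region for 100%, 97.1% and 97.1%, and served as an alternative. Entries lacking a gene name (0.0325%, 0.0764% and 0.0801%) and 10959 spots of unknown region were left out. The section totals of 344260, 650393 and 505305 counts limit the precision. Counts were summed by section and region into 27 sums of 1456 to 182699 counts. CPM divides by the total of the sum, the mean of the other 8 regions weights regions equally, and SDs are over sections.

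Sums were tested in edgeR 4.0.16 under R 4.3.3 by quasi-likelihood, with region and section as terms, TMM scaling and filterByExpr at a minimum count of 10, which left 1996 genes. P-values were Benjamini-Hochberg adjusted over all of them, at a threshold of 0.05, and intervals are 2 SE. All sums of 1 section come from the same tissue. Deviations of the zone sums from region means correlated at 0.469 on average with sums of the same section (lowest 0.0938, 24 pairs) and at -0.207 with those of other sections, so section was kept as a block. No 2 sections of the zone agreed within sampling noise. The script was tested on simulated data. DESeq2 1.42.0, other scalings, no filter, no block, left-out sections, the zone without its border spots and the set of regions were alternatives.

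The members, the 23 gene lists and the tests were chosen with earlier results of these data known. Named genes were the markers given with the zone, the 14 largest positive and 8 largest negative fold changes past the threshold, with 1 direction in every section and 30 or more counts, the 4 largest in each direction for each pair of regions under the same conditions, and up to 4 members of each list together with those that passed. Any other gene was picked with its values known. Some genes that this rule takes are left out of the text.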

Additional observations from a re-analysis of the deposited data

How the results depend on the processing

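Against the other 8 regions, 52 genes passed. Other settings gave 314 (TMM factors from all genes), 145 (no filter on low counts), 19 (DESeq2), 97 (without the rostral migratory system) and 9 to 42 (without 1 section). Without the section block 2 genes passed, Celf5 and Nrgn, and the block is the pairing of sums by section. RLE scaling, library sizes alone, border spots left out and the join by spot name stayed within 1.5 times, at 45, 65, 37 and 50. Against the internal granule cell layer, where 0 passed, the counts were 1 (RLE scaling), 2 (library sizes alone), 1 (no filter), 1 (DESeq2), 2 (without the rostral migratory system), 1 (border spots left out) and 0 to 1 (without 1 section), and the genes were Gad1 or Cst3. Against the external granule cell layer they were 24 (TMM factors from all genes) and 6 (no filter), and against the rostral migratory system 3 (RLE scaling), 500 (TMM factors from all genes), 3 (library sizes alone), 98 (no filter) and 0 to 2 (without 1 section). The cause of these changes was not tested. Among named genes no direction reversed: 247 of their alternative values kept their side of the threshold and 163 did not. The alternatives reuse the same counts, so the unchanged direction adds no independent support. The difference in counts per 100 spots ran from -0.19 to 0.13 (log2) without 1 section and stayed on the same side of the threshold under each alternative. Depth limits most the rostral migratory system, with 1456 counts in section 3, and ependymal, progenitor and microglia genes, none of which could be tested.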
